A study of Mus musculus with 3 samples.

Results

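The 9 genes followed here, Dusp1, Dusp2, Dusp4, Dusp5, Dusp6, Dusp10, Dusp14, Spry1 and Spry2, encode feedback inhibitors of mitogen-activated protein kinase (MAPK) signaling. They were chosen by gene symbol, and all 9 were found among the 33696 genes of the count tables. The cells were Thy1.1+ CD8 T cells carrying the transgenic pmel T cell receptor, which recognizes a gp100 peptide of melanocytes, taken from B16F10 melanomas and profiled with droplet single-cell RNA sequencing from the 3′ end. Before transfer the T cells were activated with gp100 peptide and preconditioned with cytokine, and the C57BL/6 hosts were lymphodepleted by irradiation. Each of the 3 libraries came from 1 treatment: sIL-2 (an engineered super IL-2), IL-2/21-Trikine (an engineered ligand that joins the IL-2 and IL-21 receptor chains), or sIL-2 + IL-21, named here the sIL-2, Trikine and combination libraries. All mice received the low-dose intraperitoneal regimen of cytokine fused to mouse serum albumin, and tumors were taken on day 18 after tumor injection. In the sIL-2 + IL-21 group the combination was used for preconditioning and sIL-2 alone was given in the animals. Host age at harvest and how many mice were pooled in a library are not given in the sources used here. With 1 library per treatment no test between treatments was possible, and all intervals below are exact 95% intervals that cover counting error only.

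MAPK cascades carry signals from the T cell receptor, costimulatory receptors and cytokine receptors to ERK, p38 and JNK kinases. Dual-specificity phosphatases (DUSPs) remove the phosphates that keep these kinases active, and Sprouty proteins act upstream, on the path from receptors through Ras to ERK. Many of these genes are themselves induced by the cascade that they restrain, so their transcripts are widely read as a trace of recent signaling. In activated T cells Dusp1, Dusp2, Dusp4 and Dusp5 belong to the inducible nuclear phosphatases, Dusp6 encodes a cytoplasmic phosphatase for ERK, Dusp10 encodes a phosphatase that acts mainly on p38 and JNK, and Dusp14 encodes a small atypical member described as a negative regulator of T cell receptor signaling.

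After limits on depth and mitochondrial reads, 7760 sIL-2, 13299 Trikine and 9798 combination cells remained, with 130200802 to 168041089 unique molecular identifiers (UMIs) per library and medians of 10254 to 14056 UMIs per cell. The Trikine library held more shallow cells, 13.3% under 2000 UMIs against 3.43% and 3.72% in the other two libraries. Between 18 and 43 cell barcodes were shared by any pair of libraries. All 6 T cell markers were present, with a summed level of 3417 to 4075 counts per 1000000 UMIs (CPM). The 10 myeloid markers summed to 18.2 to 31.2 CPM and the 6 melanoma markers to 2.24 to 8.87 CPM, and Cd4 and Foxp3 together to at most 1.70 CPM. The 4 hemoglobin genes reached 68.7 CPM in the sIL-2 library and at most 0.476 CPM in the others.

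Promoter windows from RefSeq (build GRCm38.p6, 250 bases before to 50 after the annotated start) were given for 8 of the 9 genes, all except Dusp4. Each was searched on both strands for the letters TGANTCA (AP-1), TGACGTCA (the cyclic AMP response element, CRE) and GCGNGGGCG (EGR), which among 32851 windows of the same length were held by 7.81%, 1.79% and 5.55%. Of the 8 windows, 2 held a match to any of the 3, as did 14.8% of the 32851 windows, so so small a count does not set these genes apart. The windows printed here are those of Dusp1, Dusp2 and Dusp5, because the levels of these genes followed each other across clusters of cells, and Spry1, because its level followed cytokine expression most steeply. Capitals mark a match, and lower case marks all other bases. The Dusp1 window is chr17:26508423-26508722 on the minus strand, and its CRE match begins 143 bases before the start. The Dusp2 window is chr2:127335909-127336208 on the plus strand, and its EGR match begins 98 bases before the start. The Dusp5 window, chr19:53528895-53529194, and the Spry1 window, chr3:37639697-37639996, both on the plus strand, held none of these letters.
Dusp1: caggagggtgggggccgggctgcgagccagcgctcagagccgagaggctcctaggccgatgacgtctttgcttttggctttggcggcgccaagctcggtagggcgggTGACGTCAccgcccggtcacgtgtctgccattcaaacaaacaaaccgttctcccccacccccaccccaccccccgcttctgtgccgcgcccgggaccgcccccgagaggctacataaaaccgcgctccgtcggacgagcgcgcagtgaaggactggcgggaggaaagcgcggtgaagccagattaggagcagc
Dusp2: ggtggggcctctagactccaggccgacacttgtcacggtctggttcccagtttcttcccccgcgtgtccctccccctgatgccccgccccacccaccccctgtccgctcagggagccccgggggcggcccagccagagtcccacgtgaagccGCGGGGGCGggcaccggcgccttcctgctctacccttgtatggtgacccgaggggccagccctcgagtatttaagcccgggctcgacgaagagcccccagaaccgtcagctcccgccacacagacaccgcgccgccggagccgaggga
Dusp5: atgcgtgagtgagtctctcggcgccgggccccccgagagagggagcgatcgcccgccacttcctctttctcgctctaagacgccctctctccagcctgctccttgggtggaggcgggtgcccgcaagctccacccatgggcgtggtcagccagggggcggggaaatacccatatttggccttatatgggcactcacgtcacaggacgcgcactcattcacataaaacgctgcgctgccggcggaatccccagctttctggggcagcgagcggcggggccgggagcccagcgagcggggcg
Spry1: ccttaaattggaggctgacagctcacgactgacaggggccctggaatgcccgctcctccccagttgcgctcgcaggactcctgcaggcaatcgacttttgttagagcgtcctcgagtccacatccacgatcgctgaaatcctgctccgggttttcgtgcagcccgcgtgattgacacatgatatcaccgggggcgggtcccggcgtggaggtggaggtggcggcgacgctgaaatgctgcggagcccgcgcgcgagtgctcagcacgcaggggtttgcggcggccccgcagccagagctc

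Among the nuclear phosphatases, Dusp2 and Dusp5 were highest in the sIL-2 library, and Dusp1 differed by less than 0.5 on the log2 scale between whole libraries. Dusp2, encoding a phosphatase of activated lymphocytes that acts on ERK and p38, stood at 579.0 CPM with sIL-2, 347.8 CPM with Trikine and 422.2 CPM in the combination. Dusp5, encoding a nuclear phosphatase specific for ERK, stood at 519.5, 289.2 and 297.5 CPM in the same order. The sIL-2 library was thus the highest for both genes, while the other two libraries were close to each other for Dusp5. Dusp1, encoding a phosphatase with a preference for p38 and JNK, was at 183.1, 171.9 and 202.7 CPM. Dusp4, encoding a nuclear phosphatase for ERK and JNK, was at 41.7, 37.4 and 32.9 CPM. Counting error of these levels was small at this depth, but the spread between animals was not measured.

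On the log2 scale, Dusp2 differed between Trikine and sIL-2 by -0.74 (interval -0.75 to -0.72) and Dusp5 by -0.85 (-0.86 to -0.83). These values lie below those of all but 1.86% and 1.28% of the 8824 genes whose mean level over the libraries was 5 CPM or more. The median difference of those genes was -0.08 in the same comparison. Dusp1 differed by -0.09 and Dusp4 by -0.16, under the size of 0.5 used here to call a difference. Against the combination, the Trikine library differed by -0.28 for Dusp2, -0.04 for Dusp5, -0.24 for Dusp1 and 0.18 for Dusp4, and none of these reached 0.5. Between sIL-2 and the combination, Dusp5 differed by 0.80, Dusp2 by 0.46 and Dusp1 by -0.15. Several of these values changed when the cells were weighted in another way. With equal weight given to each cluster of similar cells, Trikine differed from the combination by -0.51 for Dusp1, -0.52 for Dusp2 and -0.34 for Dusp5, and sIL-2 differed from the combination by -0.51 for Dusp1, 0.10 for Dusp2 and 0.30 for Dusp5.

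Dusp6, encoding the cytoplasmic ERK phosphatase, was at 26.4 CPM with sIL-2, 19.5 CPM with Trikine and 18.6 CPM in the combination. The last 2 libraries did not differ beyond counting error (log2 difference 0.07, interval -0.00 to 0.14), and sIL-2 exceeded the combination by 0.51 (0.44 to 0.58). That value sits at the edge of the threshold and was under it in 7 of 12 other settings.

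Dusp10 and Dusp14 separated the libraries in other ways. Dusp10 was at 57.1 CPM with sIL-2, 58.9 CPM with Trikine and 32.8 CPM in the combination, so that the combination library stood apart below the other two. The log2 difference was 0.85 (0.80 to 0.89) for Trikine against the combination, 0.80 (0.75 to 0.85) for sIL-2 against the combination, and 0.04 between Trikine and sIL-2. Dusp14 was lowest with Trikine, at 20.5 CPM, against 33.7 CPM with sIL-2 and 39.2 CPM in the combination. The log2 difference of Trikine was -0.72 (-0.78 to -0.65) against sIL-2 and -0.93 (-0.99 to -0.88) against the combination.

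The Sprouty genes differed in order from each other. Spry1 was at 20.4 CPM with sIL-2, 14.8 CPM with Trikine and 7.94 CPM in the combination. The log2 difference of 1.36 (1.26 to 1.46) between sIL-2 and the combination was the largest of the 9 genes in any pair, and 99.5% of the genes compared had a lower value. Trikine exceeded the combination by 0.89 (0.80 to 0.99). Spry2 was lowest with sIL-2, at 7.81 CPM, against 12.9 CPM with Trikine and 11.5 CPM in the combination. It was the only one of the 9 genes higher with Trikine than with sIL-2 by at least 0.5 (0.72, interval 0.61 to 0.83).

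**Figure D1:**
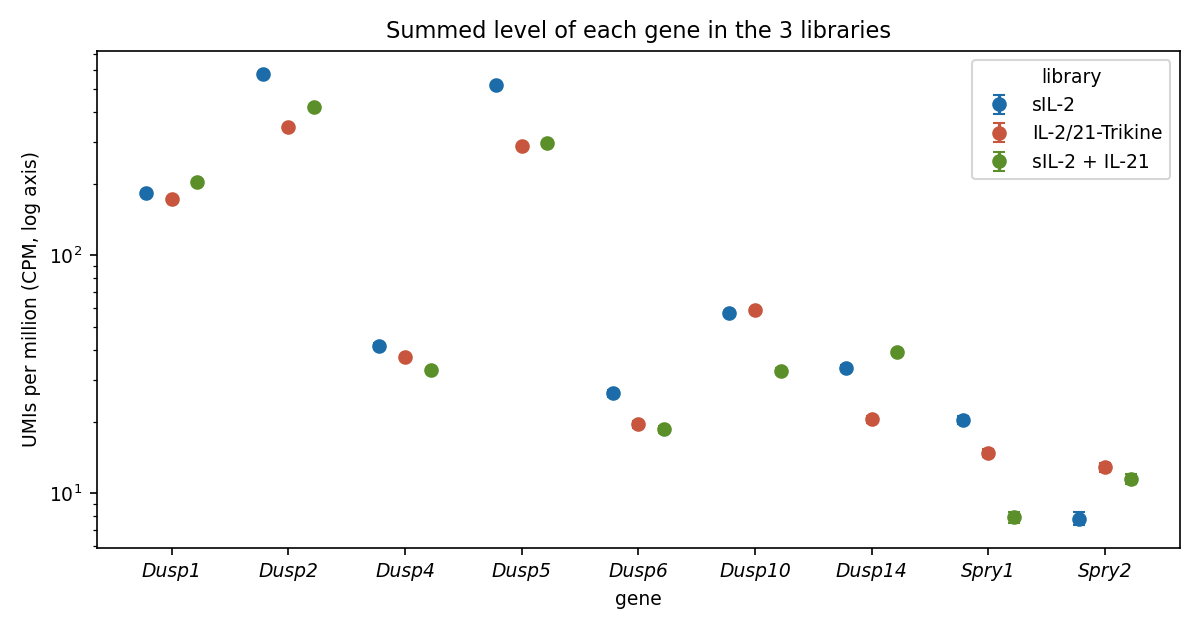
Level of each gene in CPM (log axis) in the sIL-2, Trikine and combination libraries. Points are summed UMIs of all kept cells and bars the exact 95% counting interval. Dusp2 and Dusp5 were highest with sIL-2 (579.0 and 519.5 CPM), Dusp10 and Spry1 lowest in the combination (32.8 and 7.94 CPM), and Dusp14 lowest with Trikine (20.5 CPM).

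Counted over the 9 genes, 3 were lower with Trikine than with sIL-2 (Dusp2, Dusp5 and Dusp14), where 5.81% of all genes compared were lower by as much, and 1 was higher (Spry2), where 2.88% of all genes were. Against the combination, 2 were higher with Trikine (Dusp10 and Spry1; background 3.51%) and 1 was lower (Dusp14; background 3.58%). Between sIL-2 and the combination, 4 were higher with sIL-2 (Dusp5, Dusp6, Dusp10 and Spry1; background 10.1%) and 1 was lower (Spry2; background 5.79%). The median difference of the 9 genes was -0.44, 0.07 and 0.46 in these comparisons, beside -0.08, 0.00 and 0.08 over all genes compared. With equal weight for each cluster, the medians of the 9 genes were -0.23, -0.18 and 0.09, so the second changed sign and the third came close to the median of all genes, which was then -0.09, -0.05 and 0.03. The comparisons share libraries, so they are not independent of each other.

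**Figure D2:**
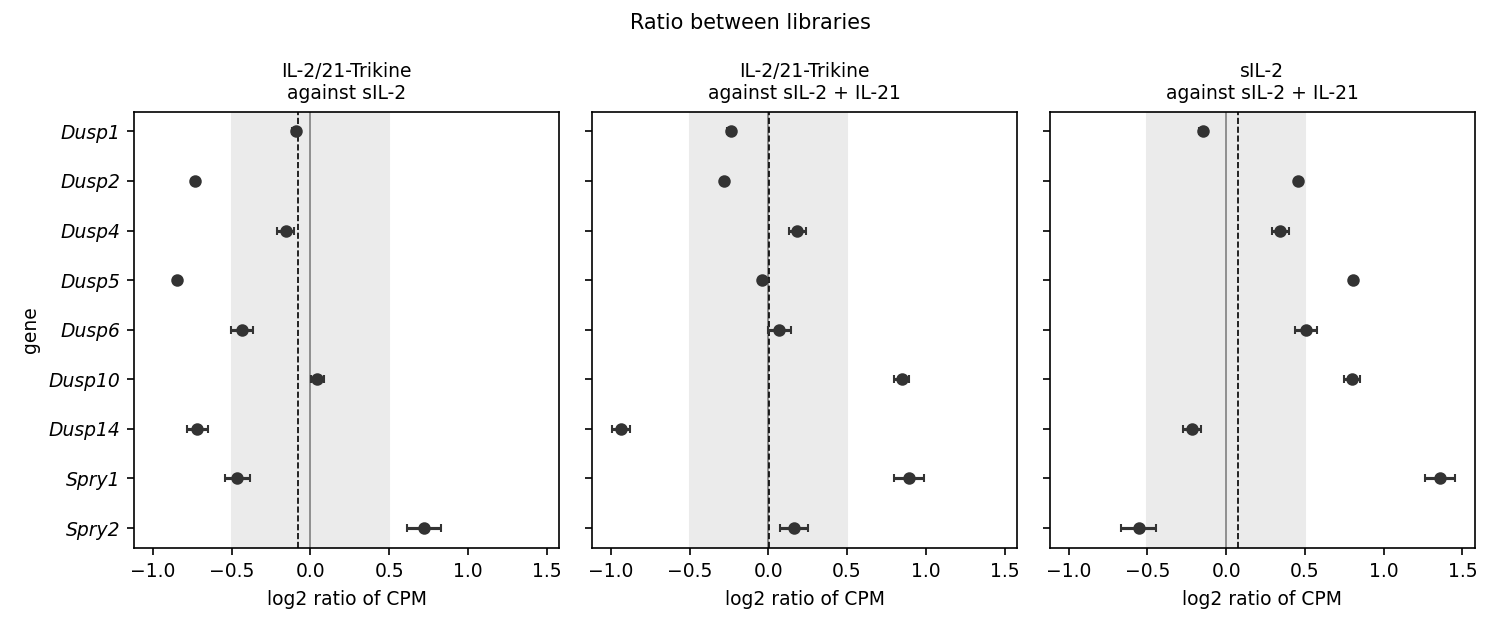
Log2 ratio of CPM for the 9 genes in each pair of libraries, named above each panel as first against second. Points carry exact 95% counting intervals (most are narrower than the point), the grey band spans 0.5 log2 on either side of 0, and the dashed line is the median of the 8824 genes compared. Spry1 in sIL-2 against the combination (1.36) lies farthest from 0.

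Kinases and adaptors of the surrounding pathway were read beside all genes compared. Of all those genes, 5.81% were lower with Trikine than with sIL-2 and 10.1% were higher with sIL-2 than in the combination. Of 16 genes of the ERK cascade itself, among them Rasgrp1 and Sos1, 1 was lower with Trikine than with sIL-2: Ksr1, a scaffold of the cascade, at 32.9 CPM with sIL-2 and 20.3 CPM in each of the other two libraries. Rasa1, a Ras GTPase-activating protein, was at 130.4, 109.9 and 81.6 CPM in the sIL-2, Trikine and combination libraries. Rasa1 and Ksr1 were the 2 of these 16 genes higher with sIL-2 than in the combination. Of 10 measured genes of the p38 and JNK cascades, 1 was lower with Trikine than with sIL-2: Map2k3, a kinase that activates p38, at 111.0 and 67.2 CPM. Map3k5 reached 0.59 between sIL-2 and the combination. Of 6 measured genes among the other feedback inhibitors, 3 differed by 0.5 or more in a pair. Dusp16 was at 33.0, 27.8 and 45.2 CPM and Dusp3 at 7.27, 6.34 and 10.1 CPM, so both were lower with Trikine than in the combination, and Spred1 differed by -0.52 between Trikine and sIL-2.

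Larger parts of the target gene lists passed the threshold, but the cascade lists also lay lower with Trikine than with sIL-2. Their medians were -0.225 for the ERK cascade, -0.241 for p38 and JNK and -0.227 for other feedback inhibitors. The median was -0.372 for ERK-responsive genes, -0.485 for receptor activation genes and -0.08 over all genes compared. Of 11 measured ERK-responsive genes, 5 were lower with Trikine than with sIL-2 and 0 were higher. The early growth response factors Egr3 (46.3, 29.7 and 25.5 CPM) and Egr2 (17.7, 14.1 and 10.0 CPM) were highest with sIL-2, as was the AP-1 subunit Fosl2 (129.4, 82.8 and 77.5 CPM). Egr1, by contrast, was at 66.7, 45.3 and 74.0 CPM and was lowest with Trikine. Myc was at 104.6, 108.2 and 67.6 CPM, a pattern with the combination library lowest, as for Dusp10. Of 9 genes induced by T cell receptor stimulation, 3 were lower with Trikine than with sIL-2 and 6 were higher with sIL-2 than in the combination. Nr4a1, an immediate response gene of the receptor, was at 346.1, 177.1 and 154.8 CPM, Nfatc1 at 110.9, 73.4 and 57.9 CPM, and Tnfsf8 at 365.3, 260.4 and 123.1 CPM. Tnfsf8, Nr4a1 and Egr3 were among the 10 leading genes of cluster 3, described below. That cluster held 30.9% of sIL-2, 8.04% of Trikine and 6.01% of combination cells, and its part in these differences was not tested.

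Several of these transcripts also respond to tissue dissociation, which the tumors behind all 3 libraries underwent. Of 16 genes of that response, 6 were lower with Trikine than with sIL-2, 0 were higher, and the median difference was -0.36. Ier3 is counted both here and among the ERK-responsive genes. Zfp36 was at 87.1, 50.6 and 46.5 CPM, Btg2 at 1151, 764.6 and 797.6 CPM, and Junb at 1311, 908.8 and 946.9 CPM in the sIL-2, Trikine and combination libraries. Dusp1, often counted in the same response, differed by only -0.09 between Trikine and sIL-2, and Fos by -0.04. The part of dissociation in the Dusp2 and Dusp5 differences was not tested.

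Shares of cells with at least 1 UMI were compared after each cell was thinned to 2000 UMIs. Cells under 2000 UMIs were left out, so 7494 sIL-2, 11524 Trikine and 9434 combination cells were used. Shares at full depth, without thinning, are over all kept cells, a set that includes the shallow cells. Dusp2 was found in 57.8% of sIL-2 cells (interval 56.7% to 58.9%), 43.7% of Trikine cells (42.8% to 44.7%) and 50.5% of combination cells (49.5% to 51.5%). Without thinning these shares were 89.6%, 75.0% and 88.0%. Dusp5 was found in 58.2%, 40.2% and 42.9% of thinned cells, and in 90.2%, 72.1% and 86.6% of cells at full depth. The order of the libraries in the thinned shares was that of the CPM for both genes. Dusp10 was found in 11.4%, 11.5% and 7.97% of thinned cells (44.0%, 37.5% and 33.6% at full depth), and Spry1 in 3.63%, 2.81% and 1.69% (17.9%, 11.6% and 9.36%). Dusp14 was found in 4.12%, 2.61% and 5.80% (21.1%, 11.9% and 29.1%).

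Dusp1 was found in 27.2%, 26.4% and 31.1% of thinned cells, Dusp4 in 7.58%, 6.68% and 6.22%, Dusp6 in 4.84%, 3.57% and 3.77%, and Spry2 in 1.57%, 2.29% and 2.14%. At full depth these were 70.0%, 58.3% and 74.0% for Dusp1, 33.8%, 27.8% and 34.3% for Dusp4, 28.0%, 17.6% and 22.7% for Dusp6, and 8.79%, 10.3% and 14.6% for Spry2. For Dusp1 and Dusp4 the thinned shares of sIL-2 and Trikine cells had overlapping intervals, and so did those of Dusp6 and Spry2 in Trikine and combination cells. No cell class in these libraries is known to lack all of these genes, so their free RNA could not be measured. Lyz2, a myeloid gene at 1.35 to 5.37 CPM, was found in 0.127% to 0.295% of thinned cells. That share sets no bound for the 9 genes, because their levels were higher and free RNA depends on the level. The 88 thinned myeloid-like cells (median depth 17306 UMIs) were no clean background, since Cd3e was found in 44.3% of them. Dusp1 was found in 55.7% of these cells, Dusp2 in 38.6%, Dusp5 in 40.9%, Dusp10 in 12.5%, Dusp6 in 7.95%, Spry2 in 2.27%, and Dusp4, Dusp14 and Spry1 in 1.14% each. Intervals of a library lay wholly above those of the myeloid-like cells for Dusp2 and Dusp5 with sIL-2 and for Dusp4 with sIL-2 and with Trikine. For Dusp1 the library intervals lay below, and for the other shares the intervals overlapped. Overlap alone does not show that the shares were alike. Fewer cells that express a gene and less RNA per cell cannot be told apart in these values.

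The genes were next set against transcripts of cytokines and chemokines, called cytokine transcripts here. A cell was called cytokine-positive when its 2000 thinned UMIs held at least 2 of the transcripts Ifng, Tnf, Il2, Il3, Csf2, Lif, Ccl1, Ccl3, Ccl4 and Xcl1. This held for 4174 of 7494 sIL-2 cells (55.7%), 6508 of 11524 Trikine cells (56.5%) and 5589 of 9434 combination cells (59.2%). The chemokine transcripts Xcl1 (53.2%, 69.7% and 57.0% of cells) and Ccl4 (48.5%, 43.3% and 44.1%) were found most often. Ifng was found in 28.5%, 22.2% and 29.1%, Tnf in 6.06%, 5.06% and 5.81%, and Il2 in 1.37%, 1.04% and 0.996%. The class thus rests largely on chemokine RNA, and secretion was not measured. Positive cells were deeper before thinning, with medians of 12772 to 15626 UMIs against 10312 to 13239 UMIs in the others. Levels below are CPM from the thinned UMIs, with the 10 cytokine transcripts left out of the total.

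In all 3 libraries Spry1, Dusp14 and Dusp2 were higher in cytokine-positive than in other cells by at least 0.5 on the log2 scale, and Dusp10 was lower. Of 8424 genes compared, 2.67% were higher by that much in all 3 libraries and 1.39% were lower. Spry1 was at 31.0 CPM in positive and 7.38 CPM in other cells with sIL-2, 23.2 and 5.29 CPM with Trikine, and 13.1 and 3.77 CPM in the combination. These are log2 differences of 2.07 (1.62 to 2.54), 2.13 (1.71 to 2.58) and 1.79 (1.21 to 2.42), and 83.2% to 84.9% of all Spry1 UMIs lay in cytokine-positive cells. Dusp14 was at 35.6 and 13.1 CPM with sIL-2, 22.6 and 6.98 CPM with Trikine, and 41.9 and 20.2 CPM in the combination, differences of 1.44, 1.69 and 1.05. Dusp2 was at 762.5 and 467.2 CPM, 470.4 and 287.4 CPM, and 562.6 and 347.2 CPM, and its difference of 0.70 to 0.71 was nearly the same in every library.

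Dusp10 was the reverse case. It was at 52.3 CPM in positive and 94.0 CPM in other cells with sIL-2, 53.9 and 93.5 CPM with Trikine, and 35.4 and 65.1 CPM in the combination. The differences were -0.85 (-1.03 to -0.67), -0.79 (-0.94 to -0.65) and -0.88 (-1.07 to -0.68). The share of cells with a Dusp10 UMI was 8.53% against 15.1%, 9.08% against 14.7%, and 6.30% against 10.4%. Between 40.7% and 43.8% of Dusp10 UMIs lay in cytokine-positive cells, which held 55.3% to 58.9% of all UMIs.

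The other members were tied less closely to cytokine expression. Dusp6 was higher in positive cells by 0.71, 0.66 and 0.33 in the sIL-2, Trikine and combination libraries, Dusp1 by 0.47, 0.42 and 0.46, and Dusp5 by 0.31, 0.24 and 0.30. Dusp4 differed by 0.66, 0.09 and 0.43, and in the Trikine library its interval (-0.11 to 0.29) included 0. Spry2 differed by 0.30, 0.37 and 0.02, with intervals that included 0 in the sIL-2 and combination libraries. The median over the 9 genes was 0.66, 0.42 and 0.43, and the median over all genes compared was -0.04, -0.02 and -0.01.

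Graded by the number of cytokine transcripts detected, Spry1 went from 4.54 CPM in sIL-2 cells with none to 45.5 CPM in those with 4 or more, and from 4.81 to 44.9 CPM in Trikine cells. In combination cells it went from 4.69 to 22.9 CPM. In cells with none the libraries could not be told apart, with only 12, 15 and 13 Spry1 UMIs in the sIL-2, Trikine and combination libraries. In cells with 1 transcript Spry1 was at 9.27 CPM with sIL-2, 5.51 CPM with Trikine and 3.26 CPM in the combination. With 4 or more, sIL-2 and Trikine cells were alike and combination cells lower. Dusp14 went from 14.0 to 51.9 CPM, from 4.81 to 33.2 CPM and from 17.0 to 57.2 CPM in the same order of libraries. Dusp10 was lower at each of the 4 steps in all 3 libraries, going from 101.7 to 36.1 CPM, from 101.9 to 31.4 CPM and from 76.1 to 29.8 CPM. Dusp2 was higher at every step in each library, and went from 417.2 to 996.3 CPM with sIL-2. Median depth before thinning was also higher along these bins, from 11192 to 17697 UMIs in the sIL-2 library.

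**Figure D3:**
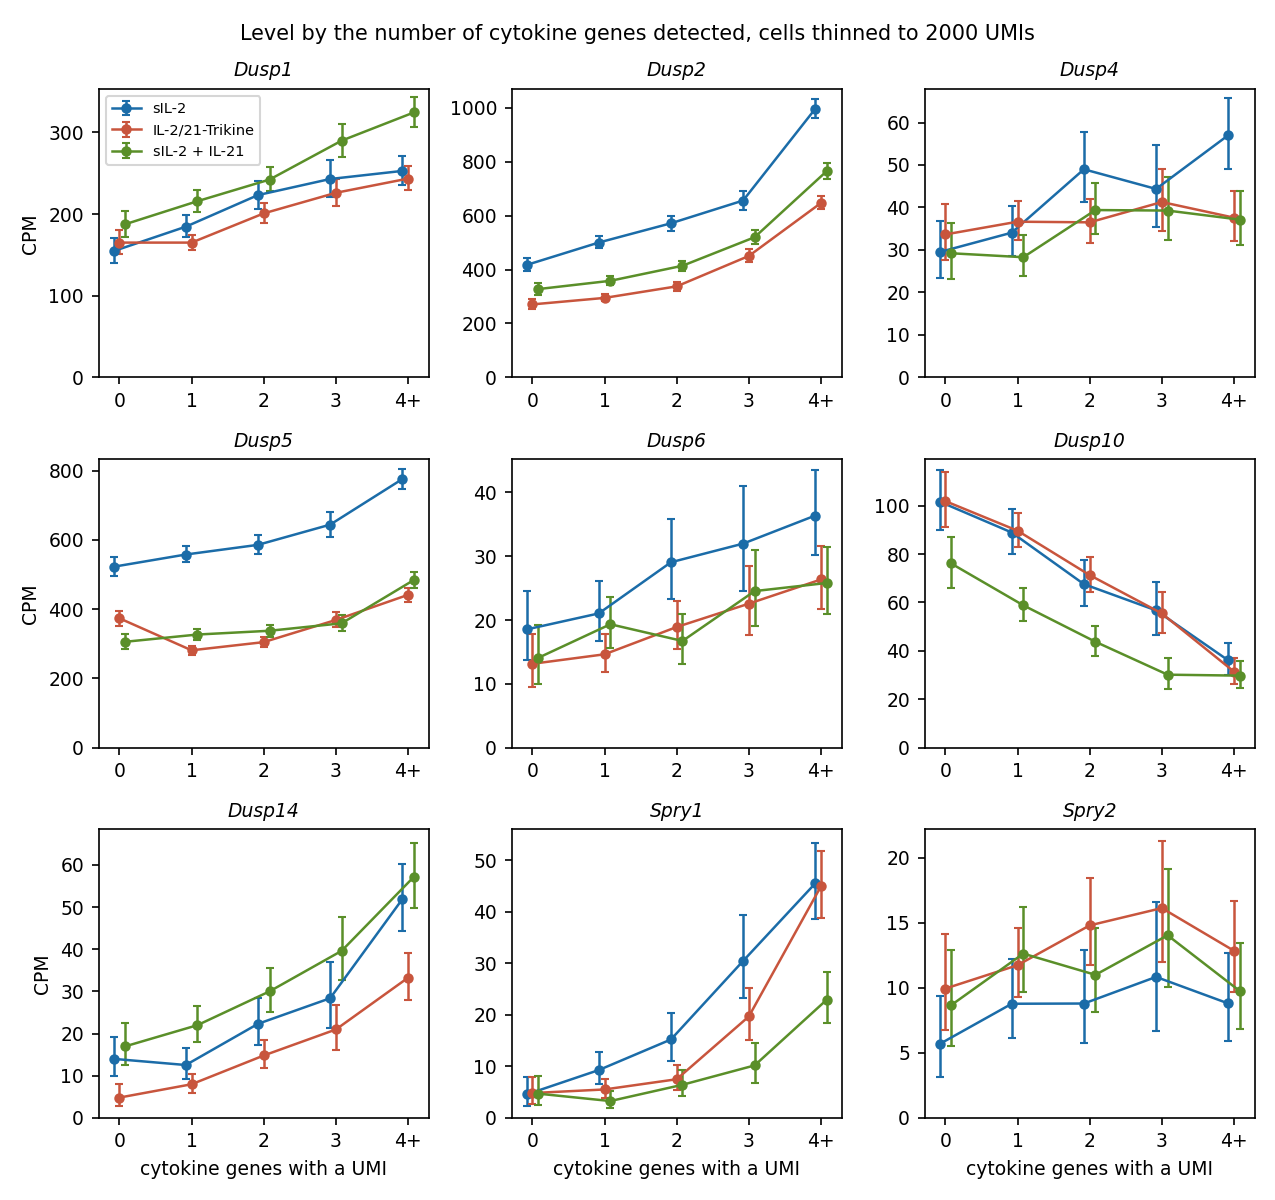
Level of each gene (CPM from cells thinned to 2000 UMIs) in cells with 0, 1, 2, 3 or 4 and more of the 10 cytokine transcripts. Lines join the bins of a library and bars are exact 95% counting intervals. Spry1 and Dusp14 slope upward, Dusp10 slopes downward in all 3 libraries (from 101.7 to 36.1 CPM with sIL-2), and Spry2 shows no steady slope.

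Taking the cytokines singly, Spry1 was higher, with an interval above 0 in all 3 libraries, in cells with a UMI of 9 of the 10 transcripts, all but Lif, which was found in 20 to 31 cells per library. The difference was largest for Il2: 2.46, 2.55 and 3.02 on the log2 scale in the sIL-2, Trikine and combination libraries, from 94 to 120 Il2-positive cells each. Dusp14 was higher in all 3 libraries with 6 of these 9 transcripts, Ifng, Csf2, Ccl1, Ccl3, Ccl4 and Xcl1. Its difference was largest for Csf2 (1.57, 1.87 and 1.23), and it was 1.36, 1.68 and 1.02 for Ccl1. In Il2-positive and Il3-positive cells only 1 to 6 Dusp14 UMIs were counted per library, and every interval of the difference included 0. Tnf-positive cells held 19 to 32 Dusp14 UMIs per library. There the differences were 0.10, 0.11 and -0.13, again with intervals that included 0. Dusp10 was lower with 6 of the 10 transcripts in all 3 libraries, including Ifng, where it differed by -0.76, -0.81 and -0.77. Dusp4 was higher with Csf2, by 0.87, 0.46 and 0.55, and with Xcl1, and with no other transcript in all 3 libraries. Dusp2 was higher in all 3 libraries with the same 9 transcripts as Spry1, and Dusp5 with 6 of the 10. With Xcl1, Dusp5 differed by 0.02 with sIL-2, -0.25 with Trikine and -0.12 in the combination, the last 2 with intervals below 0.

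Lists of pathway genes were read in the same way. Of the 16 cascade genes 0 were higher and 0 were lower by 0.5 in cytokine-positive cells of all 3 libraries. Over all genes compared, 2.67% were higher and 1.39% were lower, so a count of 0 does not set these 16 genes apart. Ksr1 came closest, at 0.62 with sIL-2, 0.70 with Trikine and 0.41 in the combination. The medians of the cascade genes were 0.04, 0.00 and 0.01. Of the 11 ERK-responsive genes 6 were higher and 0 lower, led by Egr2 at 2.77, 2.50 and 2.07. Of the 9 receptor activation genes 6 were higher and 0 lower, with Nr4a1 at 1.26, 1.23 and 1.12. Of the 16 dissociation-response genes 5 were higher and 0 lower, and their part in the relation of Dusp1 or Dusp2 to cytokines was not tested. Fos and Ier3 are counted both here and among the ERK-responsive genes. Map2k3 was higher by 1.09, 1.03 and 0.56, while Map2k6, which also activates p38, differed by -0.65, -1.08 and -0.55.

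Most of the called library differences, but not all, held within both classes of cells. Dusp5 differed between Trikine and sIL-2 by -0.88 in cytokine-positive and -0.81 in other cells, and Dusp2 by -0.70 in each. Dusp14 differed between Trikine and the combination by -0.89 in positive cells and by -1.53 (-1.96 to -1.11) in other cells, where it was at 6.98 and 20.2 CPM. Dusp10 was higher with Trikine than in the combination by 0.61 and 0.52. Spry1 was higher with sIL-2 than in the combination by 1.25 (0.94 to 1.55) and 0.97 (0.28 to 1.68). The difference of Spry1 between Trikine and the combination was 0.83 in positive cells, but in other cells it was 0.49 with an interval that included 0 (-0.19 to 1.19). Dusp6 was higher with sIL-2 than in the combination by 0.58 in positive cells, and in other cells the value was 0.20 (-0.16 to 0.56). For Spry2 the same pair gave -0.57 in other cells and -0.29 (-0.72 to 0.13) in positive cells. For no gene and pair of libraries did the classes differ in opposite directions with intervals that excluded 0.

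Cells were grouped into 16 clusters with the 9 genes, the cytokines and the class markers left out of the grouping. Spry1 was concentrated in cluster 1, called early activated-like and led by Il3, Il2, Crabp2 and Ccl3. In this cluster 88.5% to 92.0% of cells were cytokine-positive. The markers behind its name are all among the cytokine transcripts, so the name and this share are not separate findings. In cluster 1 Spry1 stood at 63.7 CPM in the sIL-2 library, 46.3 CPM with Trikine and 41.2 CPM in the combination. It was lowest in cluster 2, called stem-like, led by S1pr1 and also by Tcf7 and Klf2, at 2.03, 2.66 and 2.10 CPM. After thinning, 8.83% of cluster 1 cells and 0.353% of cluster 2 cells held a Spry1 UMI, with medians of 11283 and 7060 UMIs before thinning. Dusp2 was also highest in cluster 1 in every library, at 973.0, 609.0 and 962.1 CPM.

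Dusp10 and Dusp14 lay at opposite ends in the stem-like cluster. Dusp10 reached 133.3, 120.2 and 117.1 CPM in the stem-like cluster of the sIL-2, Trikine and combination libraries, and 30.8, 30.0 and 24.1 CPM in the early activated-like cluster. It was also high in cluster 12, called ISG-like for its interferon-stimulated genes, reaching 105.8 CPM in sIL-2 cells and 127.1 CPM in Trikine cells. Dusp14 was lowest in the stem-like cluster of every library, at 6.37, 3.31 and 5.24 CPM. It peaked in cluster 6, terminal cytotoxic-like, with sIL-2 (73.7 CPM) and Trikine (37.5 CPM), and in cluster 5, led by Plk2, Dthd1 and Cd74, in the combination (55.7 CPM). Cluster 7, also called terminal cytotoxic-like, did not share this peak, with Dusp14 at 27.3, 17.5 and 21.9 CPM in the sIL-2, Trikine and combination libraries.

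The other nuclear phosphatases had patterns of their own. Dusp5 was highest in the stem-like cluster with sIL-2 (793.0 CPM) and the combination (634.8 CPM) and in the ISG-like cluster with Trikine (549.5 CPM). Dusp1 was high in the stem-like cluster (260.3, 223.4 and 349.7 CPM) and in cluster 3, led by Trp53inp1, Cdkn1a and Bach2 (242.2, 261.6 and 406.6 CPM). Dusp4 was among the highest in clusters 3 and 5 of each library, at 52.1 to 67.0 CPM, and was at 9.38 to 13.8 CPM in cluster 9, led by Myo1f. Dusp6 ranged from 5.59 to 33.0 CPM and Spry2 from 4.35 to 29.8 CPM over all clusters and libraries. The highest Spry2 value came from cluster 11 of the Trikine library, whose median cell held 832 UMIs.

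**Figure D4:**
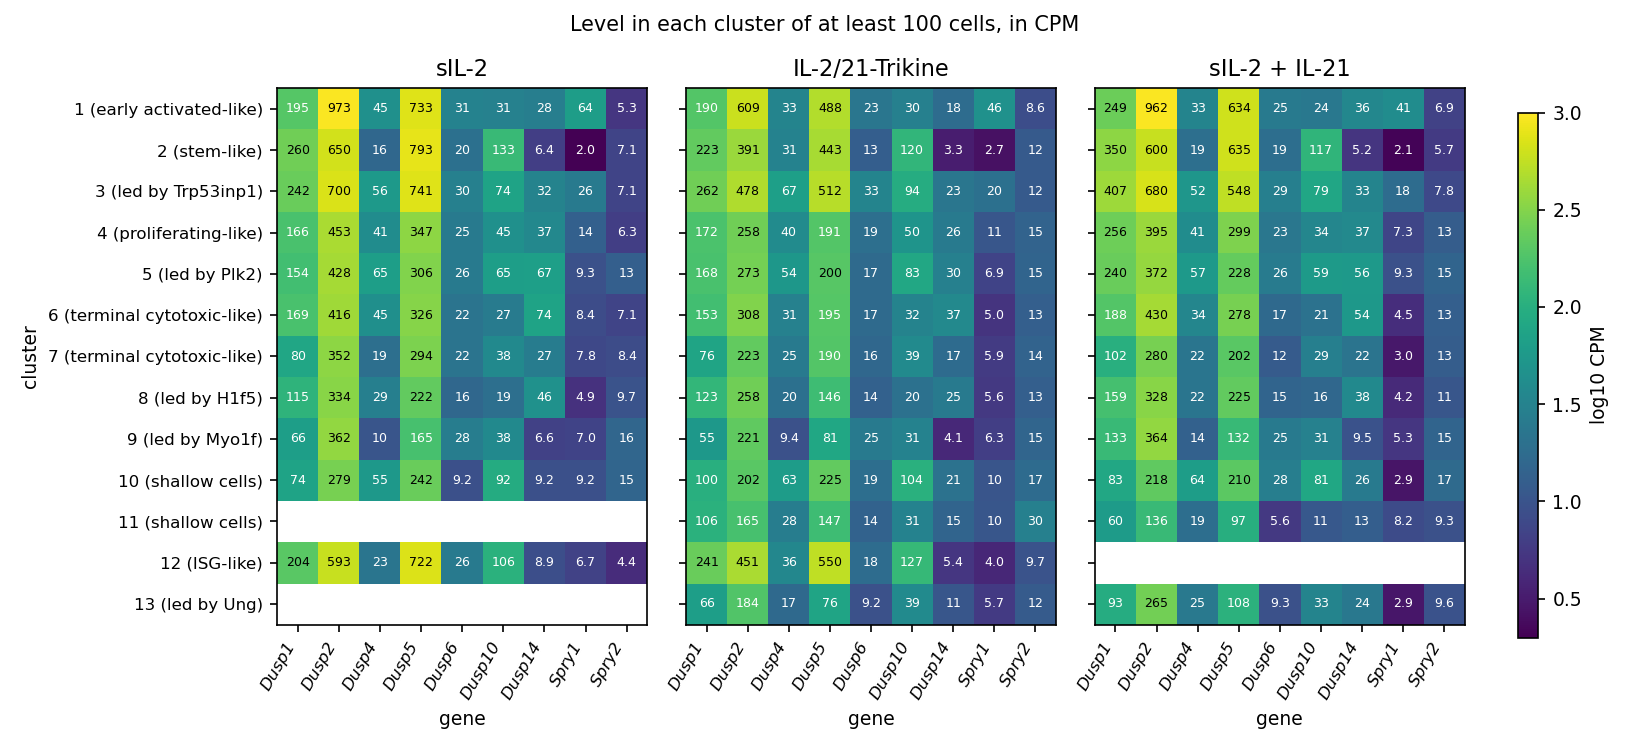
Level of the 9 genes in each cluster with at least 100 cells of a library, one panel per library. Cells print the CPM and the color shows its log10; white rows had fewer than 100 cells, and clusters 10 and 11 hold shallow cells. Spry1 is highest in cluster 1 (41.2 to 63.7 CPM) and lowest in cluster 2 (2.03 to 2.66 CPM), while Dusp10 is high and Dusp14 low in cluster 2.

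The libraries filled these clusters unequally. Cluster 3 held 30.9% of sIL-2 cells, 8.04% of Trikine cells and 6.01% of combination cells, and cluster 6 held 3.66%, 3.54% and 19.0%. Within clusters Dusp2 and Dusp5 were lower with Trikine than with sIL-2 in 11 of 11 clusters with at least 100 cells of each library, with medians of -0.65 and -0.61. Dusp14 was lower in 10 of 11 and Spry2 higher in 10 of 11. Among these, intervals included 0 for Dusp5 in cluster 10, Dusp14 in cluster 12 and Spry2 in clusters 5, 8 and 10. Clusters of a library share their source and are not replicates, and like counts over all genes are not given here. Against the combination, Dusp10 was higher with Trikine in 12 of 12 clusters, but by a median of 0.35. It exceeded 0.5 in 3 of them, among them cluster 11 (1.485), where depth differed between the libraries. The Dusp10 intervals included 0 in clusters 2, 9, 10 and 13, and so in the stem-like cluster (0.04, -0.08 to 0.16). Dusp1, by contrast, was lower than in the combination in 10 of 12 clusters with Trikine (median -0.47) and in 10 of 10 with sIL-2 (median -0.45), where the whole libraries differed by -0.24 and -0.15. Dusp5 was lower with Trikine than in the combination in 10 of 12 clusters (median -0.45), and Dusp2 in 11 of 12 (median -0.49). Between sIL-2 and the combination the median for Dusp2 was 0.08. With each of 10 clusters given equal weight, the difference between Trikine and the combination became 0.30 for Dusp10 and 0.29 for Spry1. Between sIL-2 and the combination the same weighting gave 0.30 for Dusp5, 0.20 for Dusp10, 0.05 for Dusp6, 0.63 for Spry1 and -0.28 for Spry2, and that for Spry2 between Trikine and sIL-2 became 0.50, just under the threshold before rounding.

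In single cells thinned to 5000 UMIs the 9 genes form 36 pairs, of which 24 were found together more often than their separate shares give in all 3 libraries. Pairs of other genes were not counted, so none of these counts can be called particular to the 9 genes. For 8 pairs the counting interval lay above 1 in every library, and for 1 pair, Dusp10 with Dusp14, it lay below 1, with observed over expected ratios of 0.71, 0.81 and 0.75 in the sIL-2, Trikine and combination libraries. Dusp10 with Spry1 gave 0.79, 0.63 and 0.85, with an interval that included 1 in the combination (0.62 to 1.15). Dusp6 with Dusp14 gave 1.57, 1.45 and 1.35, and Dusp4 with Dusp14 gave 1.48, 1.25 and 1.21. Dusp14 with Spry1 gave 1.32, 1.54 and 1.31, but its interval in the combination (0.98 to 1.71) included 1. Spry1 and Spry2 were found together in as few as 8 cells of a library, so their ratio of 0.48 to 1.10 was poorly measured. Cells of a library share their source, so these ratios describe each library and carry no test.

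**Figure D5:**
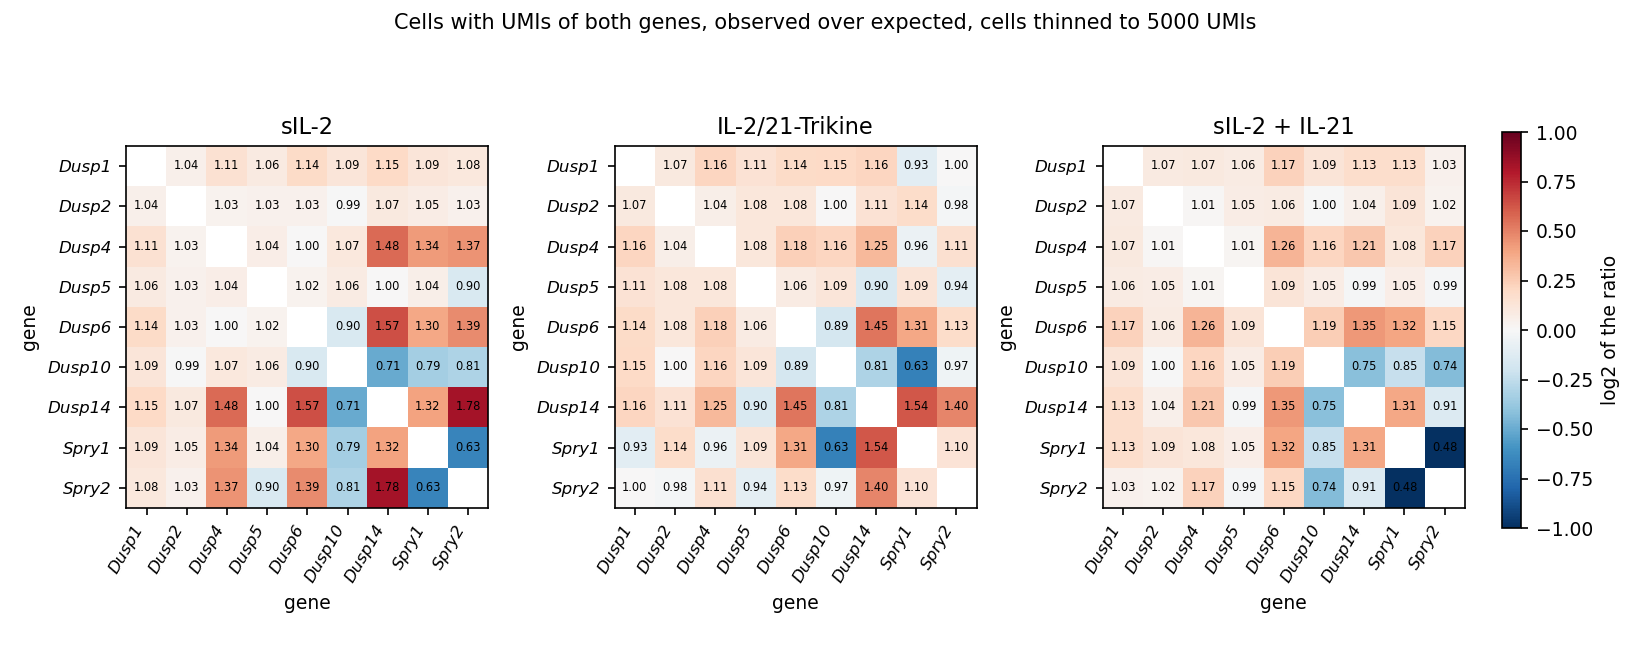
Observed over expected number of cells with UMIs of both genes of a pair, per library, in cells thinned to 5000 UMIs. The numbers are the ratios, and red marks ratios above 1 and blue below 1 on a log2 color scale. Dusp10 with Dusp14 is below 1 in all 3 libraries (0.71 to 0.81) and Dusp6 with Dusp14 above 1 (1.35 to 1.57).

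Over the 36 groups formed by cluster and library, the genes most like each member were sought among 5533 genes with at least 20 CPM. The points share libraries, so the correlations of log2(CPM + 1) are descriptions. Dusp1 was most like Ier2 (r = 0.92), Junb (0.91) and Gadd45b (0.85). Dusp2 was most like Ier5 (0.89), Dusp5 (0.88) and Egr1 (0.87), and Dusp5 most like Pim1 (0.93), Csrnp1 (0.93) and Ier5 (0.93). These 3 members followed each other, with r of 0.77 for Dusp1 and Dusp2, 0.79 for Dusp1 and Dusp5, and 0.88 for Dusp2 and Dusp5. Their printed promoter windows shared none of the 3 sets of letters.

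Dusp4 was most like Stat3 (0.90), Tgfb1 (0.83) and Bcl2l1 (0.82), and Dusp6 most like St3gal4 (0.79), Midn (0.76) and Zap70 (0.76). Dusp10 was most like Gramd3 (0.96), Emb (0.94) and Mideas (0.93), and Dusp14 most like Irf8 (0.83), Anxa2 (0.82) and Ciapin1 (0.78). Spry1 was most like Xcl1 (0.87), Cd160 (0.84) and Il2 (0.83), of which Xcl1 and Il2 are among the cytokine transcripts used above. Spry2 was most like Filip1l (0.72), Wtap (0.67) and Arl14ep (0.66), lower values than for any other member, and its r with Dusp2 was -0.72.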

How the data were processed

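Single-cell 3′ libraries (10x 3′ v3.1) of 3 treatments were analysed. The authors aligned and counted reads with Cell Ranger, and the deposited files hold UMI counts per gene and cell that were not normalized; intronic reads were included. The matrix header names Cell Ranger 9.0.0, the labels name mm10 and the study's methods a later mouse reference. For this reason no coordinates of counted genes were used, and promoter windows carry RefSeq's own build.

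From the counts, cells with 500 to 120000 UMIs and at most 20% mitochondrial UMIs were kept (30857 of 31026). Counts were summed per library and scaled to CPM, genes with a mean of 5 CPM or more over the libraries were compared, and a log2 difference of 0.5 or more was called. Intervals were exact Poisson for levels, Clopper-Pearson for shares and conditional binomial for ratios of levels. For pairs of genes they were exact Poisson for the observed number, with the expected number taken as fixed. For genes found in most cells such intervals are too wide. Cells were thinned to 2000 UMIs for shares and cytokine classes and to 5000 for pairs of genes, and cells with fewer UMIs were left out. Leiden clustering used 2000 variable genes, 50 principal components, 20 neighbors and a resolution of 1.0, without batch correction. A cluster was named from class markers, by at least 2 of them among its 10 leading genes and at least 3 higher by 0.5 log2. Scrublet marked 4 sIL-2, 1576 Trikine and 5 combination cells, so its calls were not used and doublets stayed in. The alternatives left out the highest 5% of its scores. The calculations were tested on simulated data. Python 3.11.15, scanpy 1.11.5, leidenalg 0.10.2 and, for one alternative scaling, edgeR were used. The text names the 9 genes, list genes past 0.5 (at most 6 a list, by size) and the 3 genes most like each member. Genes and lists were chosen with earlier results of these data known. Spry3 was not analysed here.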

Additional observations from a re-analysis of the deposited data

How the results depend on the processing

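No replicate could be left out, since each treatment had 1 library, and no paired analysis was possible because the labels give no replicate numbers. None of the called differences of single genes changed sign under any alternative run. TMM or median-ratio scaling, other limits on cells, equal weight per cell, and leaving out high doublet scores, myeloid or melanoma marker cells, shallow clusters or cluster 3 kept every count of called genes within 1.5 times. The exceptions follow. Thinning to 2000 UMIs took the count lower with sIL-2 than the combination from 1 to 0. Equal weight for each cluster, chosen after seeing the data, took the count higher with Trikine from 1 to 0 against sIL-2 and from 2 to 0 against the combination, the count lower against the combination from 1 to 3, and that higher with sIL-2 than the combination from 4 to 1. The 1 gene lower with sIL-2 than the combination was then Dusp1 in place of Spry2. A threshold of 0.25 gave 5 genes lower with Trikine than sIL-2 and 2 lower than the combination. A threshold of 1 left 1 gene, Spry1, higher with sIL-2 than the combination, and 0 in every other count. The cause of the changes under thinning and cluster weighting was not tested.

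In cytokine-positive cells, the UMIs not used to define the classes gave 4 genes higher in all 3 libraries and 0 lower, where Dusp10 differed by -0.48 in combination cells. Outside cluster 1, chosen after seeing the data, Dusp14 and Spry1 stayed past 0.5 and Dusp2 gave 0.41 with Trikine. Shares of the Sprouty genes rest on 118 to 324 cells per library after thinning, and the spread between animals is unknown.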
